A study of Mus musculus with 6 samples.

Results

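The proteasome subunits and regulators were the genes of the count table whose symbol begins with Psma, Psmb, Psmc, Psmd, Psme, Psmf or Psmg and a digit, without the 3 immunoproteasome catalytic subunits Psmb8, Psmb9 and Psmb10. There were 47 such genes among the 16281 of the table, and 46 had enough reads to be tested. RNA was sequenced from CD8+ T cells of OT1 mice, which are C57BL/6 mice with the transgenic T-cell receptor Tg(TcraTcrb)1100Mjb that recognises an ovalbumin peptide. All 6 cultures were started from spleen, activated with anti-CD3 and anti-CD28 in the presence of IL-2 for 48 h and expanded in IL-2 for another 3 days. In 3 of them (GSK) the LSD1 inhibitor GSK2879552 was present at 0.5 μM during activation and expansion, and the other 3 received vehicle (Veh). The age of the mice is not given in the sources used here. The cells carry a transgenic receptor and were activated through CD3 rather than by antigen, which limits them as a model of T cells in an animal. The comparison asks how inhibition of LSD1, a histone demethylase, changed the RNA of these genes. GSK2879552 acts on the LSD1 protein, so the RNA level of LSD1 does not check the treatment. No check of the treatment by the RNA of other genes was made here.

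The proteasome degrades proteins tagged with ubiquitin. Its barrel-shaped 20S core is made of alpha rings, which gate the entrance, and beta rings, which hold the proteolytic sites. The 19S regulator caps the core: its base contains ATPases that unfold substrates, and its lid removes ubiquitin. Other activators open the core without ATP, chaperones assemble both particles, and subunits are needed together in fixed proportions. In T cells the proteasome also supplies peptides for antigen presentation and takes part in cell division and in NF-κB activation. Cells that need more proteasomes raise many subunit genes at once through Nfe2l1, which binds antioxidant response elements in their promoters.

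The promoters of 3 members are shown because they mark the range of what was measured: Psme3 had the smallest p of all members, Psmb5 encodes a catalytic subunit and carries the core of the antioxidant response element, and Psmd8 was the single member with a lower mean in GSK. Each sequence is the 120 bases before the annotated start of the gene, written 5′ to 3′ on the strand of the gene, from RefSeq (GRCm38.p6). Capitals mark the motifs TGACNNNGC (antioxidant response element core), CCAAT and CGGAAG (the core bound by ETS factors), on either strand. The positions are chr11:101316093-101316212 (plus strand) for Psme3, chr14:54617996-54618115 (minus strand) for Psmb5 and chr7:29180674-29180793 (minus strand) for Psmd8.
Psme3: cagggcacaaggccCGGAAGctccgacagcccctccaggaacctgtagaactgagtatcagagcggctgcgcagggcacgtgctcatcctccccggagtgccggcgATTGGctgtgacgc
Psmb5: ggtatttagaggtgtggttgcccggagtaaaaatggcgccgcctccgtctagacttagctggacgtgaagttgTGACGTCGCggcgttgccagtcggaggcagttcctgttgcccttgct
Psmd8: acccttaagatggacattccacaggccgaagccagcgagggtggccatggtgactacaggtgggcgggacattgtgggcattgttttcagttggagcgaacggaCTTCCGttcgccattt
In Psme3 the ETS core begins 106 bases before the start and the CCAAT box, on the other strand, 14 bases before it. The antioxidant response element core begins 47 bases before the start in Psmb5. The ETS core of Psmd8 lies on the other strand and begins 16 bases before the start.

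Motifs were counted in windows of 300 bases, 250 before and 50 after each start. Windows were found for 39 of the 47 members, 43 windows in all. The antioxidant response element core was in 6 of the 43 (14%) and in 12.4% of all 32851 promoter windows. The CCAAT box was in 14 (32.6%) against 37.4% of all windows. The ETS core, which was counted after it had been seen in several members, was in 24 (55.8%) against 16.9% of all windows. The member windows also had more G and C, with a median of 59.0% against 52.7%. All windows came from 27025 genes, tested here or not, and the windows of tested genes were not counted apart. Among members past the test described below, 17 of 29 windows held the ETS core (58.6%), and among the others 7 of 14 (50%). The 3 motifs were counted independently of each other on both strands, and a match describes letters, not binding. In the 3 sequences above, the ETS core is thus in the member with the smallest p and also in the member with the lower mean.

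The counted reads per sample ranged from 18288447 to 18918811 in Veh and from 19149909 to 19846720 in GSK. Levels are given as CPM, the reads of a gene scaled to the TMM-adjusted library total. Fold changes and p-values come from 1 edgeR model (quasi-likelihood F test) of the whole table, adjusted by Benjamini-Hochberg over its 11698 tested genes. The summed CPM of 5 CD8 T-cell markers was 1937 to 2036 in Veh and 1752 to 1869 in GSK. No marker of any list was at 0 in every sample. The summed CPM was 0.762 to 1.79 in Veh and 0.472 to 1.72 in GSK for Cd4, 5.78 to 7.89 and 5.47 to 6.22 for 4 B-cell markers, 10.1 to 15.4 and 9.96 to 13.1 for 5 myeloid markers, 1.52 to 2.36 and 2.33 to 3.73 for 2 NK-cell markers and 0.105 to 0.268 and 0.0506 to 0.261 for 2 red-cell markers. The CD8 markers were thus lower and the NK-cell markers mostly higher in GSK, and their part in the results below was not tested. In RNA from whole cultures, fewer cells of a kind and less RNA per cell cannot be told apart. The p-values set the difference between the groups against the spread within these 3 and 3 samples, which is estimated partly from all genes.

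RNA of most proteasome subunits was modestly higher in GSK, in the core and in the regulator. Of the 46 members tested, 33 (71.7%) were upregulated at an adjusted p under 0.05 and none was downregulated. Over all genes tested, 16.6% were higher and 15.5% were lower at that threshold. Abundant genes pass the test more often, and 25.6% of the 4569 genes with a mean of at least 50 CPM were higher, against 30 of 39 members (76.9%) at that level. The median log2 fold change of the members was 0.21, or 15.4% higher in GSK, and that of all genes was -0.0039. The members ranged from -0.076 for Psmd8 to 0.49 for Psmc3ip, so no member was called at the fold change of 1.5 used for the study, in either direction. Of all genes, 2.22% were called higher and 4.09% lower by that rule. At an unadjusted p under 0.05 of the same test, 37 members passed, as did 5026 of the 11698 genes.

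**Figure D1:**
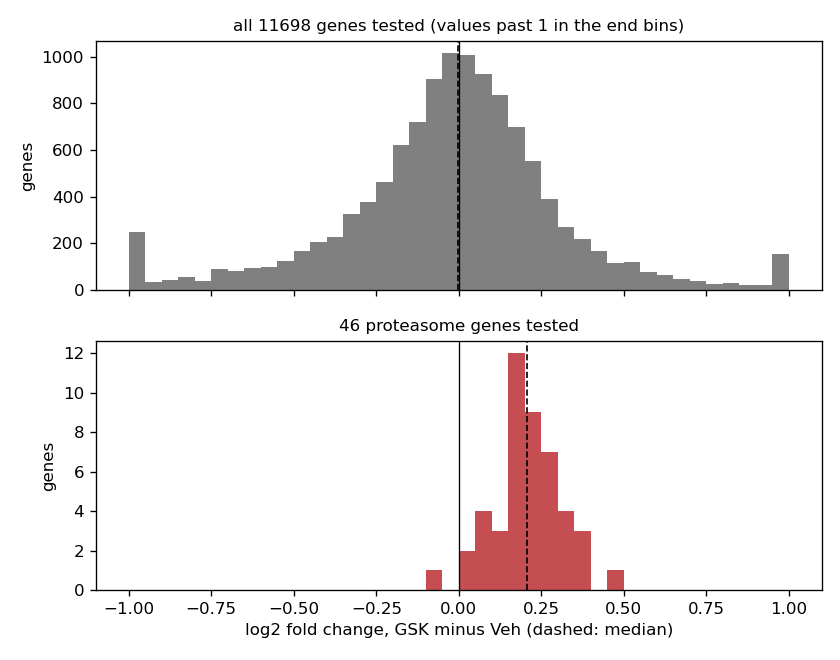
Number of genes (vertical axis) by log2 fold change of GSK minus Veh (horizontal axis), for all 11698 genes tested above and for the 46 proteasome genes below, with the median as a dashed line. All genes centre on -0.0039 and the proteasome genes on 0.21, with 1 of them below 0 (3 with upper quartile factors).

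In 38 members every GSK sample lay above every Veh sample, a pattern found in 23.7% of all genes tested. In 1 member, Psmd8, every GSK sample lay below every Veh sample, as in 23% of all genes, and in the other 7 tested members the groups overlapped. The fold change was above 0 in 45 members, of which Psmd10 (total counts only and upper quartile factors) and Psme4 (upper quartile factors) lay below 0 with another scaling. Summed over all 47 members, the CPM was 5930, 6203 and 6032 in the Veh samples and 7037, 6664 and 7267 in the GSK samples. The means were 6055 ± 138 and 6989 ± 304 (SD, n = 3), a ratio of 1.15. The members took 0.596% to 0.624% of the counted reads in Veh and 0.663% to 0.719% in GSK. GSK replicate 2 was the lowest GSK sample in 36 members and GSK replicate 3 the highest in 34. The members lie on 16 chromosomes, 10 of them on chromosome 11 and 6 on chromosome 2, so they are not a single cluster. Relative to the Veh mean, the median member stood 0.22, 0.14 and 0.26 higher on the log2 scale in GSK replicates 1, 2 and 3.

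**Figure D2:**
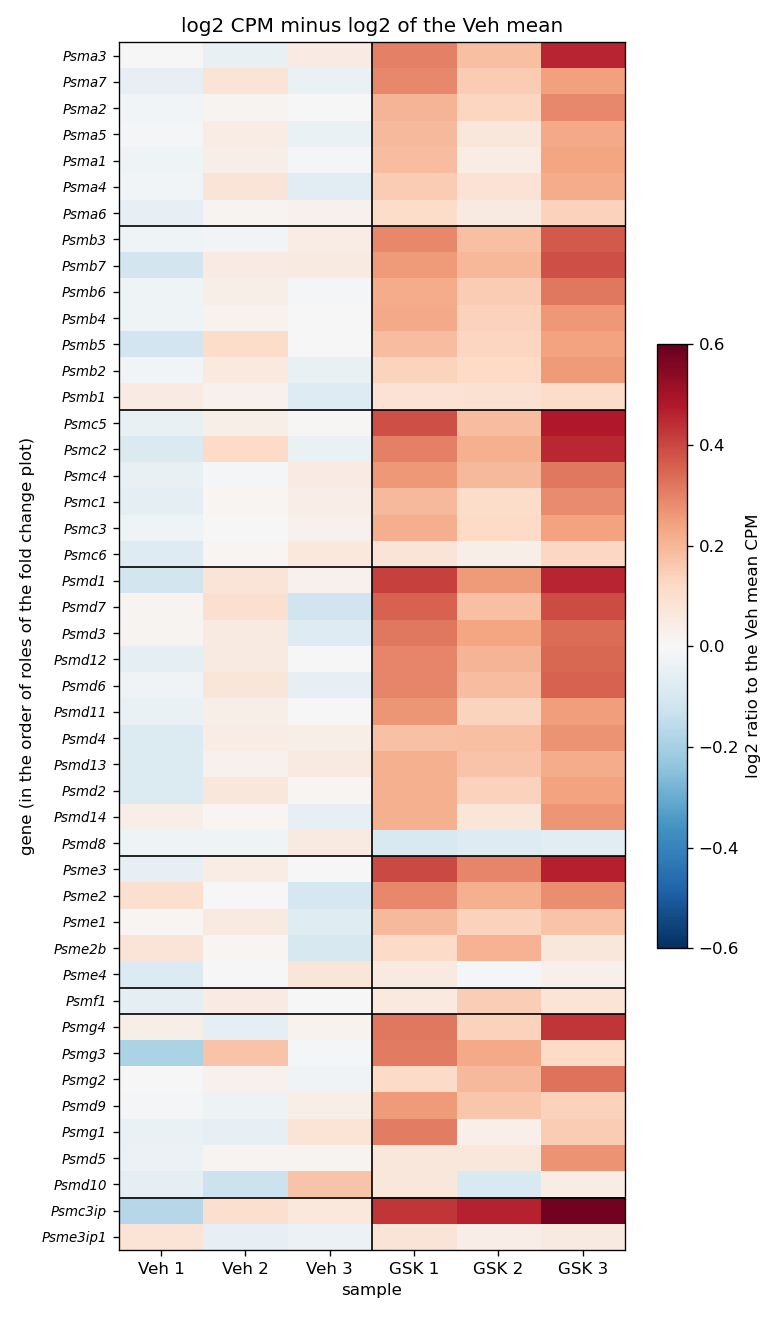
Each of the 46 tested members (rows, grouped by role) in each of the 6 samples (columns), coloured by the log2 ratio of its CPM to the mean CPM of Veh. The GSK columns are red in nearly all rows, palest in GSK replicate 2, and the row of Psmd8 is pale blue in all 3 GSK samples.

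The alpha ring of the core was higher, with 6 of 7 tested subunits upregulated and fold changes of all 7 from 0.10 to 0.32 on the log2 scale. Psma3, an alpha subunit, had 109, 107 and 114 CPM in Veh and 136, 124 and 151 CPM in GSK. Its log2 fold change was 0.32 ± 0.064 (SE, adjusted p = 0.0028), and the lowest GSK sample exceeded the highest Veh sample. Psma1, the most abundant alpha subunit by CPM, had 210, 220 and 213 CPM in Veh and 244, 221 and 252 CPM in GSK. GSK replicate 2 was close to Veh there, and the log2 fold change was 0.16 ± 0.051 (SE, adjusted p = 0.032). The exception in the ring was Psma6, at 143, 150 and 151 CPM in Veh and 160, 154 and 163 CPM in GSK. Its groups did not overlap either, but the log2 fold change of 0.10 ± 0.045 (SE) did not pass (adjusted p = 0.10). Psma8, the alternative alpha subunit of the testis, was at the edge of detection, with 4, 0 and 0 reads in Veh and 0, 7 and 0 in GSK, and was not tested. Summed over the ring, the CPM was 1195 ± 29.1 in Veh and 1361 ± 73.1 in GSK (SD, n = 3).

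In the beta ring 6 of 7 subunits were upregulated as well, and the log2 fold changes of all 7 ranged from 0.10 to 0.28. Psmb3, a structural subunit, had 136, 137 and 143 CPM in Veh and 169, 157 and 179 CPM in GSK, a log2 fold change of 0.28 ± 0.052 (SE, adjusted p = 0.0014). Psmb4, the most abundant of the ring and also without a proteolytic site, had 203, 210 and 208 CPM in Veh and 243, 228 and 248 CPM in GSK. In both genes the GSK samples stood clear of Veh, with 0.21 ± 0.044 (SE, adjusted p = 0.0032) for Psmb4. Psmb7, which carries the trypsin-like site, had 116, 130 and 130 CPM in Veh and 150, 144 and 164 CPM in GSK. Its log2 fold change was 0.28 ± 0.059 (SE, adjusted p = 0.0035). Psmb6, with the caspase-like site, had 128, 133 and 129 CPM in Veh and 152, 145 and 162 CPM in GSK. The fold change of 0.23 ± 0.050 (SE, adjusted p = 0.0037) was close to that of Psmb7. The chymotrypsin-like subunit Psmb5, whose promoter is printed above, had 83.7, 97.8 and 90.7 CPM in Veh and 103, 99.1 and 107 CPM in GSK. The margin between the groups was narrow, and the log2 fold change was 0.19 ± 0.059 (SE, adjusted p = 0.029). Psmb1, a structural subunit, had 205, 202 and 188 CPM in Veh and 210, 211 and 214 CPM in GSK. It was the beta subunit that did not pass (0.10 ± 0.045, SE, adjusted p = 0.12).

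In the base of the 19S regulator, 5 of the 6 ATPases were upregulated, and the log2 fold changes ranged from 0.079 to 0.36. Psmc5 had 93.2, 98.3 and 96.6 CPM in Veh and 126, 109 and 134 CPM in GSK. The increase was 0.36 ± 0.067 on the log2 scale (SE, adjusted p = 0.0019), the highest estimate of the ATPases. Psmc4 had 127, 131 and 136 CPM in Veh and 157, 150 and 163 CPM in GSK, with a log2 fold change of 0.26 ± 0.047 (SE, adjusted p = 0.0014). The most abundant ATPase by CPM, Psmc3, had 186, 190 and 193 CPM in Veh and 221, 206 and 225 CPM in GSK (0.19 ± 0.045, SE, adjusted p = 0.0057). None of these 3 genes had overlapping groups. Psmc6 had 139, 148 and 153 CPM in Veh and 155, 150 and 159 CPM in GSK, so its groups overlapped, and its log2 fold change was 0.079 ± 0.049 (SE, adjusted p = 0.24). The ATPases summed to 865.2 ± 27.4 CPM in Veh and 1011 ± 57.9 CPM in GSK (SD, n = 3).

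Of the 11 non-ATPase subunits of the regulator, 10 were upregulated, by 0.19 to 0.38 on the log2 scale, and the group had both the most abundant member and the exception to the direction. Psmd3, a lid subunit, had 176, 181 and 165 CPM in Veh and 217, 205 and 220 CPM in GSK. Its log2 fold change of 0.30 ± 0.048 (SE, adjusted p = 6.1e-04) had the second smallest p of the members. Psmd1, a large scaffold subunit of the base, had 199, 227 and 219 CPM in Veh and 285, 256 and 295 CPM in GSK. The log2 fold change was 0.38 ± 0.060 (SE, adjusted p = 7.3e-04), and Veh replicate 1 was the low sample of its group. The lid subunit Psmd12 had 97.1, 105 and 100 CPM in Veh and 123, 116 and 128 CPM in GSK (0.28 ± 0.051, SE, adjusted p = 0.0014). Another lid subunit, Psmd6, had 83.3, 88.9 and 81.7 CPM in Veh and 104, 96.2 and 108 CPM in GSK (0.28 ± 0.056, SE, adjusted p = 0.0024). In both, GSK replicate 2 was the GSK sample nearest to Veh. Psmd2, a scaffold of the base with the highest CPM of all members, had 295, 327 and 315 CPM in Veh and 362, 344 and 369 CPM in GSK. Its log2 fold change was 0.20 ± 0.046 (SE, adjusted p = 0.0060).

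Psmd8, a lid subunit at chr7:29174187-29180673, went against the rest of the regulator. It had 222, 222 and 235 CPM in Veh and 212, 214 and 216 CPM in GSK. All GSK samples were lower, but the log2 fold change of -0.076 ± 0.042 (SE) did not pass the test (adjusted p = 0.18), and its adjusted p was 0.20 to 0.49 when any sample was left out. In Veh its level was at the upper end of the non-ATPase subunits, at 103 CPM per kb of exon against a median of 69.2 for the group. Whether Psmd8 differed from its neighbours in the lid was not tested.

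**Figure D3:**
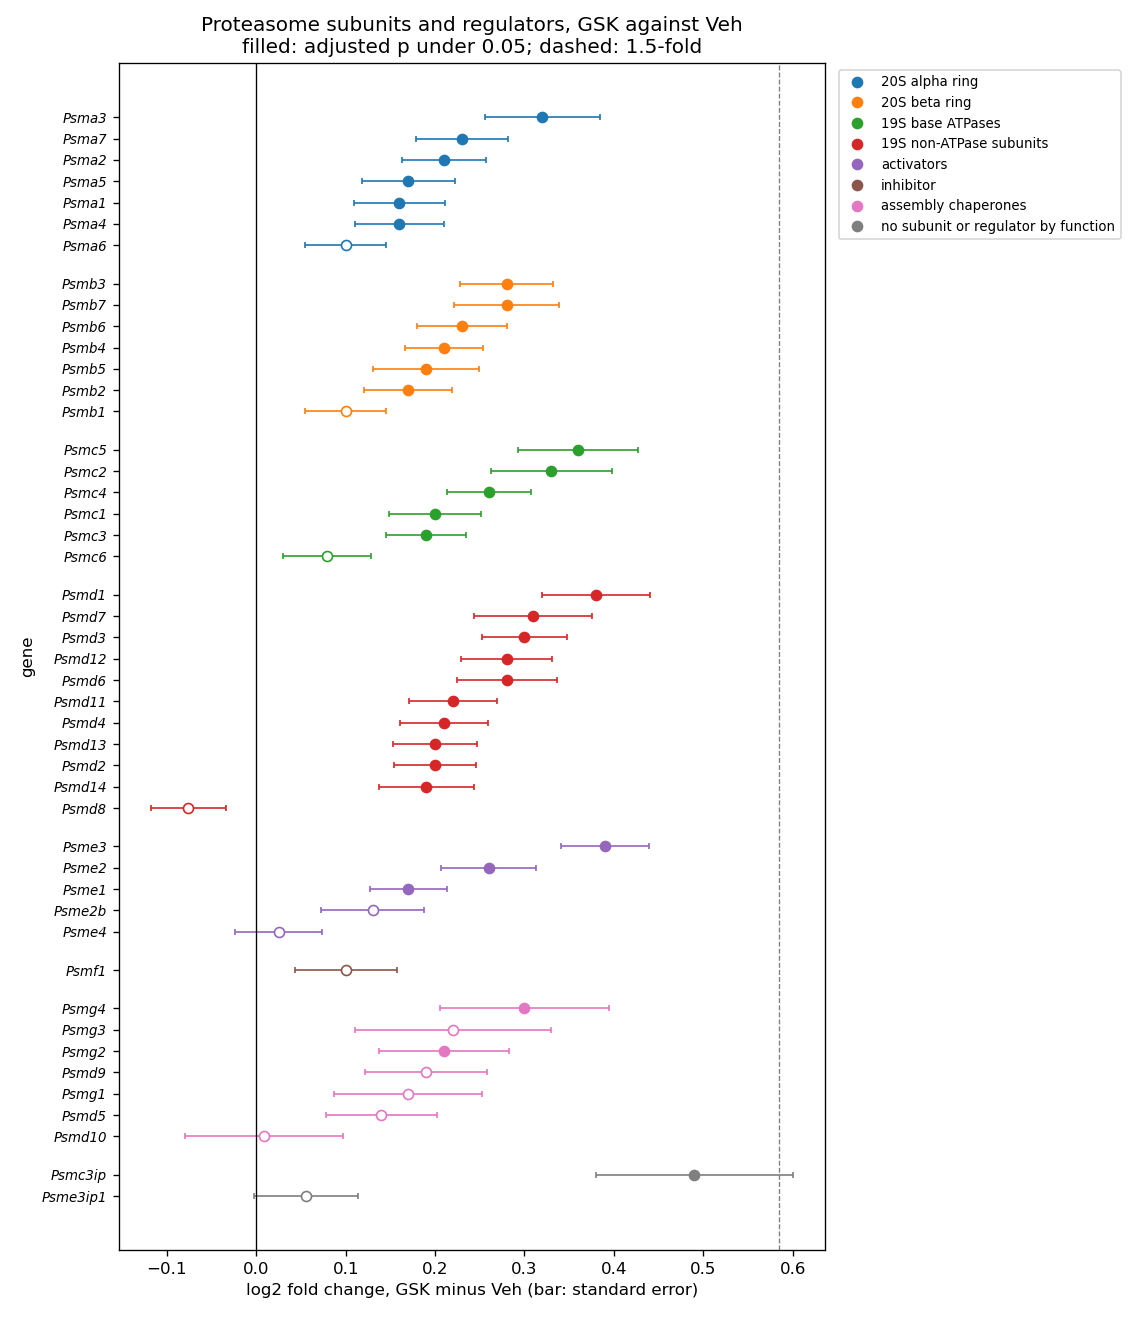
Log2 fold change of GSK minus Veh (horizontal axis, point) with its standard error (bar) for the 46 tested members, ordered by role and size. Filled points passed an adjusted p of 0.05, the dashed line is 1.5-fold, and all points but Psmd8 lie between 0 and 0.49, although Psmd10 and Psme4 fall below 0 with other scalings.

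Among the activators, the nuclear PA28γ and the interferon-inducible PA28αβ were upregulated, and PA200 was not. Psme3, which encodes PA28γ, had 212, 226 and 220 CPM in Veh and 288, 268 and 303 CPM in GSK. This was an increase of 30.6%, or 0.39 ± 0.049 on the log2 scale (SE, adjusted p = 1.3e-04), with the smallest p of all members. The gene lies at chr11:101316213-101323537 (GRCm38). Psme2, the beta subunit of PA28, had 190, 178 and 165 CPM in Veh and 217, 206 and 215 CPM in GSK (0.26 ± 0.053, SE, adjusted p = 0.0024). Its partner Psme1, the alpha subunit, had 273, 280 and 257 CPM in Veh and 309, 297 and 304 CPM in GSK (0.17 ± 0.043, SE, adjusted p = 0.010). In all 3 genes the groups stood apart. Psme1 (chr14:55578494-55581527) and Psme2 (chr14:55587440-55591101) are neighbours on the chromosome. Psme4, which encodes PA200, had 127, 135 and 142 CPM in Veh and 140, 134 and 137 CPM in GSK, within the range of Veh (0.025 ± 0.049, SE, adjusted p = 0.74). Psme2b, a copy of Psme2, had 84.5, 80.6 and 74.9 CPM in Veh and 86.7, 92.5 and 83.8 CPM in GSK (0.13 ± 0.058, SE, adjusted p = 0.096). Of the 31-base stretches in its exons 78.4% also occur in another gene, and 62.6% of those of Psme2 do, so reads of this pair are hard to assign.

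Per length, the ratio of Psme3 to Psme1 was 0.325, 0.337 and 0.357 in Veh and 0.389, 0.377 and 0.417 in GSK. Every GSK sample thus had more Psme3 relative to Psme1. The ratio of Psme2 to Psme1 was 0.794, 0.723 and 0.732 in Veh and 0.80, 0.790 and 0.808 in GSK, and the lowest GSK ratio was below the highest Veh ratio. No exact permutation test of a ratio over 3 and 3 samples can reach a two-sided p under 0.1, so these ratios are described only.

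The inhibitor and most assembly chaperones did not pass the test. Psmf1, which encodes the inhibitor PI31, had 47.5, 51.0 and 49.2 CPM in Veh and 51.2, 54.6 and 52.1 CPM in GSK (0.10 ± 0.057, SE, adjusted p = 0.22). Its lowest GSK value lay just above its highest Veh value. Of the 7 chaperones, Psmg4 and Psmg2, which help to build the core, were upregulated, with log2 fold changes of 0.30 ± 0.095 (SE, adjusted p = 0.029) and 0.21 ± 0.073 (SE, adjusted p = 0.038). Both calls were lost with DESeq2 (adjusted p = 0.068 and 0.085). Psmd5, a chaperone of the base and the most abundant of the 7, had 64.4, 66.9 and 66.8 CPM in Veh and 69.2, 69.3 and 79.7 CPM in GSK (0.14 ± 0.062, SE, adjusted p = 0.10). GSK replicate 3 was the high sample. Psmd10, another chaperone of the base, had 25.2, 24.0 and 29.5 CPM in Veh and 27.6, 24.6 and 27.1 CPM in GSK, with GSK inside the range of Veh. The chaperones had 15.0 to 69.4 CPM on average, below the 93.7 to 335 CPM of the core and regulator subunits, and their standard errors were 0.062 to 0.11 on the log2 scale.

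**Figure D4:**
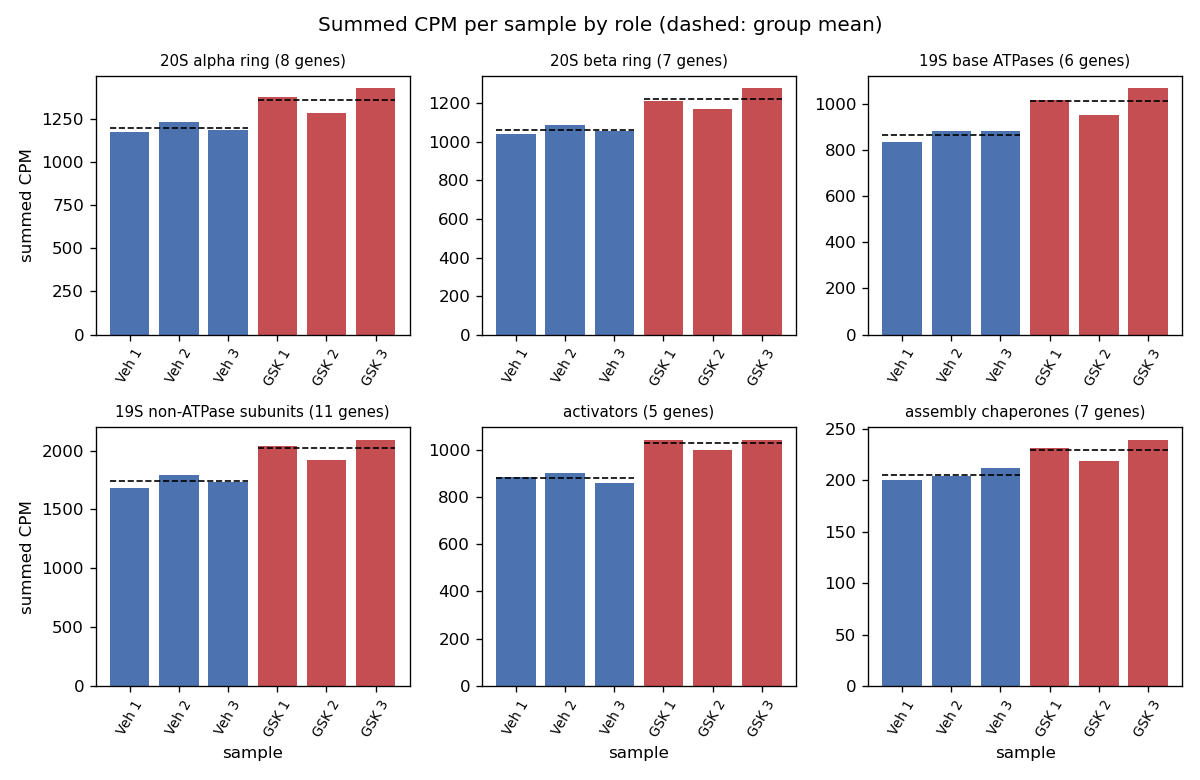
Summed CPM (vertical axis, from 0) of the members of 6 roles in each Veh (blue) and GSK (red) sample, with the group mean as a dashed line. In every role shown the 3 GSK bars exceed the 3 Veh bars, for example 1684 to 1792 against 1923 to 2093 CPM for the non-ATPase subunits.

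The symbol rule also took in 2 genes that are no part of the proteasome. Psmc3ip, a protein of meiotic recombination, had 9.74, 11.7 and 11.5 CPM in Veh and 14.8, 15.1 and 16.4 CPM in GSK. Its rise of 0.49 ± 0.11 on the log2 scale (SE, adjusted p = 0.0036) was the largest estimate of the 46, and its 3 GSK samples were close to each other. Psme3ip1, a protein that binds PA28γ, had 53.2, 48.6 and 49.1 CPM in Veh and 53.0, 51.7 and 52.2 CPM in GSK, and its groups overlapped (0.056 ± 0.058, SE, adjusted p = 0.49). Without both genes, the 20S and 19S subunits alone had 27 of 31 upregulated, with a median log2 fold change of 0.21 and a summed CPM of 4858 ± 128 in Veh and 5612 ± 270 in GSK (SD, n = 3).

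Subunits that stand in equal numbers in the complex had unequal RNA levels per kb of exon. Per kb of exon in Veh, the alpha subunits ranged from 38.6 CPM for Psma3 to 178 CPM for Psma4 (4.60-fold), and the beta subunits from 57.9 CPM for Psmb1 to 198 CPM for Psmb2 (3.41-fold). The ATPases were the closest, from 65.6 CPM for Psmc6 to 112 CPM for Psmc1 (1.71-fold), and the non-ATPase subunits ranged from 38.0 CPM for Psmd11 to 106 CPM for Psmd2 (2.77-fold). These differences in level were wider than the change of any member between GSK and Veh. They depend on the exon lengths taken from the basic annotation of GENCODE M21, which count the exons of all protein-coding transcripts of a gene. By CPM alone the order of Psmb1 and Psmb2 is reversed, at 198 and 170 CPM in Veh over 3427 and 859 bases of exon. Psma3 had 110 CPM over 2846 bases, and Psma4 207 CPM over 1165 bases. How much of each range comes from the lengths was not tested.

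Cells exposed to interferon replace the catalytic subunits Psmb5, Psmb6 and Psmb7 with Psmb8, Psmb9 and Psmb10. Psmb8 had 536, 546 and 524 CPM in Veh and 621, 596 and 599 CPM in GSK (0.18 ± 0.036, SE, adjusted p = 0.0024). Psmb10 had 117, 116 and 105 CPM in Veh and 131, 127 and 136 CPM in GSK (0.22 ± 0.052, SE, adjusted p = 0.0060). Psmb9 had 194, 200 and 174 CPM in Veh and 192, 187 and 172 CPM in GSK (-0.043 ± 0.059, SE, adjusted p = 0.61). Thus 2 of these 3 rose, and the groups overlapped for the third. Per length, the ratio of Psmb9 to Psmb6 was 0.896, 0.887 and 0.794 in Veh and 0.745, 0.765 and 0.628 in GSK, so every GSK sample had less Psmb9 relative to its constitutive counterpart. The ratio of Psmb8 to Psmb5 was 3.27 ± 0.238 in Veh and 3.24 ± 0.137 in GSK, and that of Psmb10 to Psmb7 was 0.798 ± 0.0889 and 0.762 ± 0.0255 (SD, n = 3). Both of these ratios overlapped between the groups. Exons of Psmb9 overlap those of Tap1 on the other strand, and exons of Psmb8 overlap those of Gm20496.

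**Figure D5:**
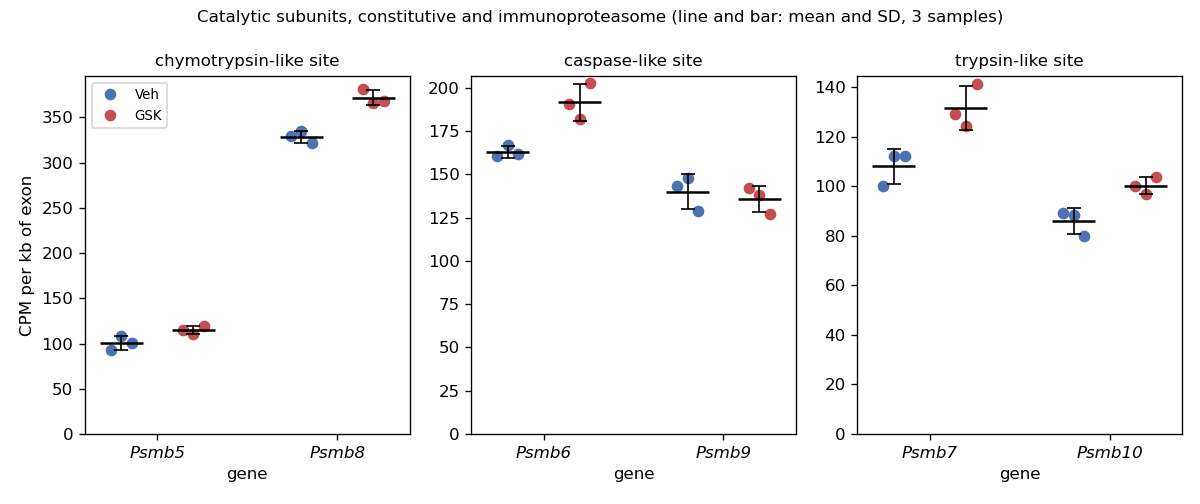
CPM per kb of exon (vertical axis, from 0) of the 3 constitutive catalytic subunits and their immunoproteasome counterparts in 3 Veh (blue) and 3 GSK (red) samples, with mean and SD. Psmb8 is the highest of the 6 genes in both groups, and Psmb9 is the gene without a higher mean in GSK.

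Beyond these, 32 further genes of the ubiquitin and proteasome pathway had been listed by function, with earlier results of these data known. With the 3 immunoproteasome subunits, 15 of the 35 were upregulated and 1 was downregulated, with a median log2 fold change of 0.13. Over all genes tested, 16.6% were higher and 15.5% lower, and 25.6% were higher at a mean of at least 50 CPM. Among 11 further components and assembly factors, 5 were upregulated. They were the ubiquitin receptor Adrm1 (0.38 ± 0.060, SE, adjusted p = 5.5e-04), the core assembly factor Pomp (0.30 ± 0.047, SE, adjusted p = 5.5e-04), the deubiquitinases Uchl5 (0.33 ± 0.053, SE, adjusted p = 6.2e-04) and Usp14 (0.21 ± 0.048, SE, adjusted p = 0.0048), and the ubiquitin ligase Ube3c, whose call was lost without GSK replicate 3 (adjusted p = 0.069) and without Veh replicate 1. Adrm1 had 72.4, 80.6 and 76.1 CPM in Veh and 100, 92.2 and 105 CPM in GSK, and Pomp had 106, 112 and 109 CPM in Veh and 133, 129 and 140 CPM in GSK. In both genes every GSK sample exceeded every Veh sample.

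Of 11 ubiquitin genes, activating enzymes and shuttle receptors, 4 were upregulated. Among them were the shuttles Ubqln1 (0.28 ± 0.048, SE, adjusted p = 9.7e-04) and Ubqln4 (0.29 ± 0.057, SE, adjusted p = 0.0022) and the activating enzyme Uba1 (0.13 ± 0.033, SE, adjusted p = 0.011). The call of Uba1 was lost without Veh replicate 2 (adjusted p = 0.053) and with upper quartile factors. Of 6 genes of the p97 segregase, which pulls ubiquitinated proteins out of complexes and membranes, 3 were upregulated. Vcp, which encodes p97, had 448, 460 and 451 CPM in Veh and 554, 531 and 614 CPM in GSK (0.32 ± 0.049, SE, adjusted p = 4.4e-04). Its cofactors Nsfl1c (0.25 ± 0.052, SE, adjusted p = 0.0032) and Nploc4 (0.18 ± 0.047, SE, adjusted p = 0.011) rose as well, but the call of Nploc4 was lost without GSK replicate 1 (adjusted p = 0.069).

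The 4 genes of the Nfe2l1 route went in different directions. Ngly1, the glycosidase that removes sugars from Nfe2l1 and so activates it, was the downregulated gene of the 35. It had 115, 109 and 114 CPM in Veh and 89.1, 96.8 and 94.7 CPM in GSK, without overlap (-0.27 ± 0.049, SE, adjusted p = 0.0013). Nfe2l2, a related factor that binds the same element, had 70.1, 70.7 and 63.4 CPM in Veh and 84.3, 73.0 and 84.0 CPM in GSK (0.24 ± 0.066, SE, adjusted p = 0.014). This call was lost without GSK replicate 1 (adjusted p = 0.084) and without Veh replicate 3. Nfe2l1 itself had 98.1, 104 and 107 CPM in Veh and 114, 104 and 112 CPM in GSK, with overlapping groups (0.094 ± 0.052, SE, adjusted p = 0.19), and the protease Ddi2, which cuts Nfe2l1, did not pass (adjusted p = 0.57). Activity of Nfe2l1 is set at the protein, which these RNA values do not measure.

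Of the 33 members upregulated, 24 passed in each of 15 other fits, and 9 (Psma1, Psma4, Psma5, Psmb2, Psmb5, Psmd14, Psme1, Psmg2 and Psmg4) were lost in at least 1. The highest adjusted p with a sample left out came without GSK replicate 1 for Psma1 (0.13), Psma5 (0.11), Psmd14 (0.089) and Psme1 (0.062), and without GSK replicate 3 for Psmg2 (0.16) and Psmg4 (0.12). It came without Veh replicate 1 for Psmb5 (0.13) and without Veh replicate 3 for Psma4 (0.13) and Psmb2 (0.079). The smallest count of upregulated members was 24, without Veh replicate 3, and the largest 35, without GSK replicate 2. With the replicate block 29 members passed, and Psma1, Psma4, Psma5 and Psmg2 did not. The counting strand is not given in the sources used here, and 9 members have exons that overlap a gene on the other strand, among them Psmb7 (405 bases with Nek6), Psmc3ip (385 bases with Mlx), Psmc3 (97 bases with Slc39a13), Psme3ip1 (61 bases with Rspry1), Psmd3 (17 bases with Gm12356) and Psme1 (7 bases with Emc9). On the same strand Psmd1 shares 301 bases with Gm21972. In 9 members, among them Psmb5 (71.7%), Psmb3 (66.8%), Psmd2 (44.4%) and Psma3 (27.3%), more than 25% of the 31-base stretches of the exons also occur in another gene, predicted genes and annotated pseudogenes included. In 19 members no exon overlapped another gene and no 31-base stretch occurred in another gene. Of these, 14 were upregulated, including Psme3, Psmc4, Psmc5, Psmd12, Psmd6 and Psmb4, against 16.6% of all genes tested. The 19 include Psma8, which was not tested.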

How the data were processed

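Polyadenylated RNA was sequenced from 3 GSK and 3 Veh cultures of OT1 CD8+ T cells as paired-end reads from stranded libraries. The authors trimmed reads with Trimmomatic, mapped them to GRCm38 with HISAT2 (version 2.1.0) and counted them per gene with HTSeq (version 0.11.2). The deposited values used here are these whole counts, without normalization. The annotation release and the strand setting are not given in the sources used here.

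Groups, taken from the sample titles, were compared by edgeR version 4.0.16 under R version 4.3.3, with TMM scaling, filterByExpr, the robust quasi-likelihood test and Benjamini-Hochberg adjustment over 11698 genes. Standard errors were derived from the test statistic. Upregulated and downregulated mean an adjusted p under 0.05, and called adds the fold change over 1.5 stated in the study's methods. No pair of samples in a group differed by as little as sampling noise (chi-square per degree of freedom 4.07 to 9.38). Total counts of 18288447 to 19846720 left Psma8 untested. The tests were also run on counts simulated with the spread that edgeR estimated from these data. That run cannot show where the model misfits these data, and its outcome is not given here.

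Members were grouped by role. Full values are given for the 14 upregulated members with the smallest p, the most abundant member of each role, untested members, and at most 4 pathway genes per list past the test. Psma6, Psmb1, Psmb5, Psmc6, Psmd8, Psmd10, Psme2b, Psme4, Psmg2, Psmg4, Ddi2, Nfe2l1, Psmb9 and Ube3c were added after their values were seen, as were the level of 50 CPM, the ETS core and the ratios. Members and lists were chosen with earlier results of these data known. Paaf1, listed with the further components, had no row in the table, and some pathway genes are not reported here. Exon lengths and overlaps come from GENCODE M21, gene positions and promoters from RefSeq.

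Both groups carry replicate numbers 1 to 3. The paper names 3 separate mice but not which cultures share a mouse. Over all genes tested, same-numbered samples showed little common deviation (correlations -0.052, -0.081 and 0.164), which does not settle whether they share a mouse. Rps27a was lowest in replicate 1 of both groups, at 421, 682 and 662 CPM in Veh and 446, 626 and 706 CPM in GSK. The replicate block was used as an alternative. The others were DESeq2 (version 1.42.0), RLE, upper quartile and total count scaling, no filter on low counts, at least 1 CPM in 3 samples, no robust fit, thinning to the smallest total, a test against a fold of 1.5, and leaving out each sample. The authors' own fold changes were not used.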

Additional observations from a re-analysis of the deposited data

How the results depend on the processing

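The number of upregulated members was 33 in the reported analysis, 31 with DESeq2, 29 with the replicate block, 28 with upper quartile factors, 32 with total counts only, and 24 to 35 when 1 sample was left out; no member was downregulated in any of these. The median log2 fold change of the members was 0.206 and ranged from 0.171 (upper quartile factors) to 0.230 (without GSK replicate 2). No member was called past 1.5-fold in any setting, tests against that fold included. Of the other pathway genes, 12 to 17 were upregulated and 1 was downregulated in every setting with a test of change.

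The sign changed for genes near 0 that passed the test in no setting. Psmd10 was at -0.009 with total counts only, at -0.026 with upper quartile factors and from -0.052 to 0.10 with 1 sample left out. Psme4 was at -0.01 with upper quartile factors and from -0.014 to 0.064 with 1 sample left out. Akirin2 was at -0.017 and Sem1 at -0.0042 with upper quartile factors, and Akirin2 ranged from -0.010 to 0.048 with 1 sample left out. Rps27a, lowest in replicate 1 of both groups, had a log2 fold change of 0.011 ± 0.28 (SE) in the reported analysis. It was at -0.0075 with total counts only and at -0.024 with upper quartile factors. With 1 sample left out Rps27a ranged from -0.18, without Veh replicate 1, to 0.18, without GSK replicate 1. Faf2 ranged from -0.043 to 0.013 with 1 sample left out. The cause was not tested.

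Depth limited Psma8, with at most 7 reads in a sample. With 3 samples against 3, changes of the size seen here sit close to the threshold for several members. Psma1, Psma4, Psma5 and Psmg2 were lost in both the block and the upper quartile fit. In the block, samples are known to share only a replicate number. RNA levels do not measure proteasome protein or activity.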
